A study of Homo sapiens with 6 samples.

Results

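The mitochondrial ribosomal protein genes were followed in HN5 cells, a human head and neck squamous carcinoma line, after the cells had acquired resistance to erlotinib, an inhibitor of the kinase of the epidermal growth factor receptor. The resistant cells had been passaged in rising erlotinib for 3 months up to 12.5 µM and then kept at 12.5 µM for 6 months, and the sensitive parental HN5 cells were their control. RNA of 3 resistant and 3 parental samples was measured on Illumina expression arrays, and the values are the authors' normalized signals on the log2 scale. The resistant samples share a derived line, and presence of erlotinib at harvest is not stated in the labels. The labels call the samples biological replicates without naming separate cultures, so the p-values rest on a spread that may be technical.

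Members were the genes whose symbol in the platform annotation reads MRPL or MRPS, digits and at most a letter from A to C. This rule found 110 probes of 76 genes among 20046 named genes on the array, 48 named for the large and 28 for the small subunit. Each gene was represented by its probe with the highest mean over the 6 arrays. All 76 were above background on all 6 arrays, so every member was tested and none entered through 1 group only.

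Mitochondria hold their own ribosomes, which translate the few proteins encoded by mitochondrial DNA, all of them core subunits of the respiratory chain and of ATP synthase. The ribosomal RNAs come from mitochondrial DNA, whereas every ribosomal protein is encoded in the nucleus, made in the cytosol and imported. The small subunit binds and decodes the messenger RNA, and the large subunit joins amino acids and releases the chain through a tunnel that faces the inner membrane. Many of its proteins descend from those of the bacterial ribosome, and the others were added in the mitochondrial lineage.

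Of the 76 mitochondrial ribosomal protein genes 52 were lower and 24 higher in the resistant cells, by small amounts and whether or not they passed the test. Of all genes tested 5808 were lower and 5571 higher. The RNA was from bulk cells, so less RNA per cell and fewer expressing cells cannot be told apart. Of the 76 genes, 32 fell and 6 rose at an adjusted p under 0.05 (limma, Benjamini-Hochberg over all 11379 genes tested), and 38 did not pass. Over all genes tested, 26.9% fell, 26.1% rose and 53% were called in either direction, against 42.1%, 7.89% and 50% of the members. The share of members called was therefore close to the background, while their calls lay mainly on the side of falls; the difference in shares was not tested. The median log2 difference, resistant minus parental, was -0.11 over the members and -0.0058 over all genes tested. The falls were 1.11-fold to 1.57-fold and the rises 1.11-fold to 1.35-fold. One change, the fall of MRPL35, reached 1.5-fold, a size that 5.08% of all genes passed by falling and 5.62% by rising. With the background mode subtracted 4 falls reached it, MRPS34 at 1.75-fold, MRPL35 at 1.63-fold, MRPL12 at 1.54-fold and MRPS9 at 1.52-fold. That setting widens folds, and the share of all genes reaching 1.5-fold under it is not given here. The 5.08% and 5.62% are therefore no background for these 4 falls. At least 1.2-fold falls were called for 22 members, or 28.9%, against 18.1% of all genes tested. The resistant and parental arrays did not overlap for 43 members (56.6%, against 59.1% of all genes tested), with resistant values lower in 36 of them and higher in 7 (30.2% lower and 28.8% higher over all genes tested).

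**Figure D1:**
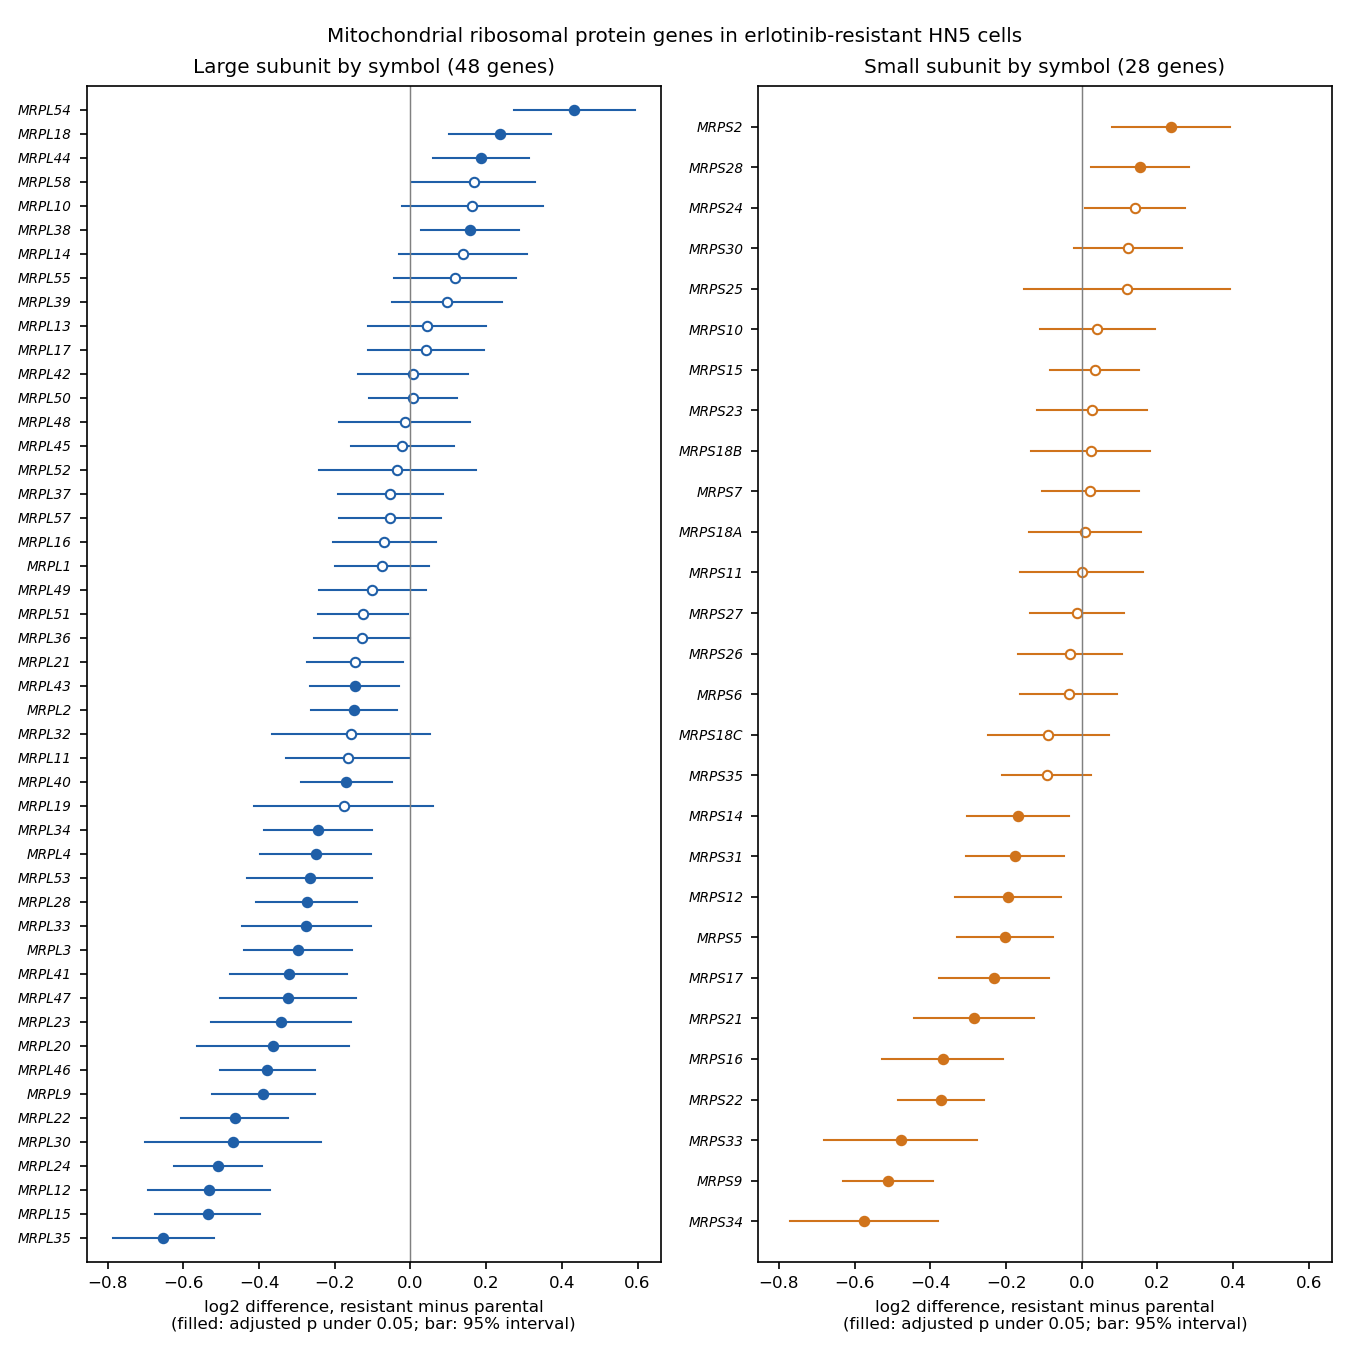
Log2 difference, resistant minus parental, of the 48 large subunit genes (left) and 28 small subunit genes (right), ordered by size, with 95% intervals from limma; filled points passed an adjusted p of 0.05. Most filled points lie left of 0, from MRPL35 at -0.65, and the 6 filled points right of 0 are led by MRPL54 at 0.43.

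The subunits were compared by their counts. Of the 48 large subunit genes 21 fell (43.8%) and 4 rose, with a median difference of -0.15. Of the 28 small subunit genes 11 fell (39.3%) and 2 rose, with a median of -0.03. Without parental replicate 3 the large subunit median log2 difference was -0.154 and the small subunit median log2 difference -0.0659, and without resistant replicate 3 they were -0.138 and -0.071. Differences in the large subunit ran from -0.65 to 0.43, and those in the small subunit from -0.58 to 0.24. The lower quartile was -0.30 in the large and -0.21 in the small subunit. Falls of at least 1.2-fold were called for 16 of 48 large and 6 of 28 small subunit genes. MRPS30 and MRPS18A carry small subunit symbols although their proteins sit in the large subunit of the mammalian particle. With both moved there, the medians were -0.14 for the large and -0.06 for the small subunit, and the counts of rises and falls were the same. No test of a difference between the subunits was made, because the lists were chosen with earlier results of these data known.

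**Figure D2:**
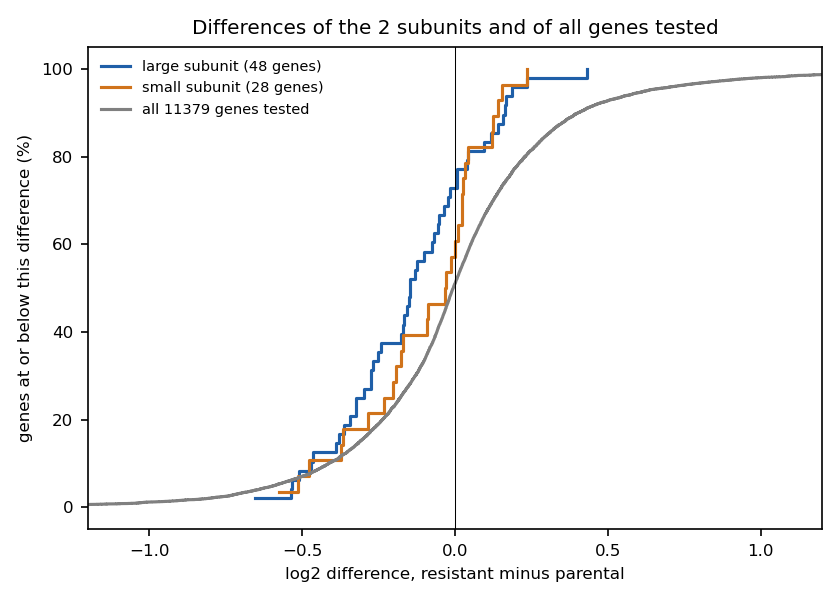
Cumulative share of genes (vertical axis, percent) at or below each log2 difference, resistant minus parental (horizontal axis), for the large subunit, the small subunit and all 11379 genes tested. The large subunit curve lies left of the others around its median of -0.15, and neither subunit has the long tails of the full set; the axis leaves out genes beyond 1.2 on either side.

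Among large subunit genes with the largest falls, MRPL35, a protein of bacterial descent, had a log2 signal of 10.10, 9.99 and 9.94 in the resistant arrays, against 10.74, 10.63 and 10.62 in the parental arrays. It was 1.57-fold lower (difference -0.65, SE 0.0621, limma adjusted p = 1.32e-06). All 3 of its probes fell, by 0.65, 0.60 and 0.43 on the log2 scale. MRPL15, another protein shared with bacteria, had 9.88, 9.95 and 10.07 in resistant arrays, against 10.56, 10.43 and 10.52 in parental arrays, a difference of -0.54 (SE 0.0640, limma adjusted p = 1.12e-05). The highest resistant value of each gene lay well below its lowest parental value.

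MRPL12 forms, with MRPL10 and MRPL11, the stalk that recruits translation factors to the large subunit. Of these 3 genes 1 passed the test, where 53% of all genes tested did. MRPL12 had 9.02, 9.30 and 9.02 in resistant arrays, against 9.62, 9.63 and 9.69 in parental arrays, a difference of -0.53 (SE 0.0746, limma adjusted p = 4.69e-05). MRPL10, which anchors the stalk, had 8.61, 8.44 and 8.63 in resistant arrays and 8.30, 8.61 and 8.28 in parental arrays, with overlapping groups (difference 0.16, 95% interval -0.02 to 0.35, limma adjusted p = 0.130). MRPL11, at the base of the stalk, had 10.32, 10.50 and 10.27 in resistant arrays and 10.50, 10.65 and 10.43 in parental arrays (difference -0.17, limma adjusted p = 0.0818). The groups of MRPL11 overlapped, and its probes did not go together: a dimmer probe fell by 0.40 (limma adjusted p over all probes = 0.00132) and the dimmest differed by 0.10. MRPL11 passed with the mean of its probes, with the replicate block, and without parental replicate 3 or resistant replicate 2 (adjusted p 0.0230 to 0.307 over the alternatives). MRPL10 passed without parental replicate 2 (adjusted p = 0.00833, up to 0.377 over the alternatives).

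Of 7 genes for proteins around the tunnel exit, where the new chain leaves toward the inner membrane, 4 fell and 1 rose, where 26.9% of all genes tested fell and 26.1% rose. MRPL24 had 9.99, 10.06 and 10.02 in resistant arrays, against 10.54, 10.55 and 10.51 in parental arrays, and these were among the tightest replicates (difference -0.51, SE 0.0537, limma adjusted p = 3.49e-06). MRPL22, which lines the tunnel, had 10.10, 10.07 and 10.19 in resistant arrays, against 10.56, 10.49 and 10.70 in parental arrays (difference -0.46, limma adjusted p = 5.01e-05). Both probes of each of these genes fell. MRPL23 and MRPL47, at the rim of the exit, fell by 0.34 and 0.32. MRPL44 was the exception, and MRPL45, which attaches the particle to the inner membrane, differed by -0.02 (limma adjusted p = 0.799), as MRPL17 did by 0.04 (limma adjusted p = 0.663).

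MRPL30 had 8.50, 8.74 and 8.79 in resistant arrays, against 8.93, 9.09 and 9.42 in parental arrays, a wider spread than most members (difference -0.47, SE 0.107, limma adjusted p = 0.00232). MRPL9 had 8.34, 8.24 and 8.21 in resistant arrays, against 8.71, 8.55 and 8.70 in parental arrays (difference -0.39, limma adjusted p = 1.67e-04). Both are proteins of bacterial descent, and neither gene's groups overlapped. The central protuberance, the crown of the large subunit, went both ways: MRPL46 and MRPL40 fell, by 0.38 and 0.17, MRPL18 and MRPL38 rose, and MRPL48 differed by -0.02 (limma adjusted p = 0.890). The other 8 large subunit genes that fell by 0.24 or more were MRPL20 at -0.36, MRPL41 at -0.32, MRPL3 at -0.30, MRPL33 at -0.28, MRPL28 at -0.27, MRPL53 at -0.27, MRPL4 at -0.25 and MRPL34 at -0.24. MRPL2, which lies at the peptidyl transferase centre, and MRPL43 fell by 0.15 each, the smallest falls called. The call of MRPL53 was lost without resistant replicate 2 (adjusted p = 0.0561), that of MRPL40 without parental replicate 2 or resistant replicate 3 or with the background mode subtracted (up to 0.0742), and that of MRPL33 with the background mode subtracted (0.0509). MRPL2 lost its call under cyclic loess and without parental replicate 1 or 2 or resistant replicate 1 or 2 (up to 0.0878). MRPL43 lost it without any replicate but resistant replicate 1, with the mean of probes, under cyclic loess, with the background mode subtracted and with an intensity trend (up to 0.126). Without resistant replicate 3 the differences of MRPL20 and MRPL33 were -0.23 and -0.17, and with the background mode subtracted those of MRPL28 and MRPL2 were -0.51 and -0.24.

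In the small subunit, MRPS34, a protein specific to the mitochondrial particle in which inherited variants cause a respiratory chain disease, had 8.30, 8.12 and 7.91 in resistant arrays, against 8.77, 8.54 and 8.75 in parental arrays. The difference was -0.58 (SE 0.0901, limma adjusted p = 1.25e-04). MRPS9, a protein of bacterial descent, had 9.05, 9.09 and 9.10 in resistant arrays, against 9.59, 9.53 and 9.65 in parental arrays (difference -0.51, SE 0.0556, limma adjusted p = 4.56e-06). The smaller spread of MRPS9 gave it the lower adjusted p although its fall was smaller. MRPS33 had 9.86, 10.03 and 9.77 in resistant arrays, against 10.25, 10.25 and 10.60 in parental arrays (difference -0.48, limma adjusted p = 7.55e-04), and both of its probes fell. None of these 3 genes had overlapping groups.

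MRPS22 and MRPS16, both known from inherited disorders of mitochondrial translation, fell by 0.37 each (limma adjusted p = 5.29e-05 and 8.80e-04). MRPS22 had the tightest groups of the small subunit falls, with 10.14, 10.11 and 10.08 in resistant arrays, against 10.48, 10.47 and 10.49 in parental arrays. MRPS21 fell by 0.28, MRPS17 by 0.23, MRPS5 by 0.20, MRPS12, a protein of the decoding centre, by 0.19, MRPS31 by 0.18 and MRPS14 by 0.17. With the background mode subtracted MRPS17, MRPS12 and MRPS31 lost their calls, and MRPS14 differed by -0.41. MRPS17 also lost its call without parental replicate 1 (adjusted p up to 0.0551 over the alternatives), and MRPS12 without parental replicate 3 or resistant replicate 2 (up to 0.107). MRPS31 also lost it without parental replicate 1 or resistant replicate 1 or 2 (up to 0.0939). MRPS14 lost it under cyclic loess and without parental replicate 2 or 3 or resistant replicate 1 or 2 (up to 0.138).

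**Figure D3:**
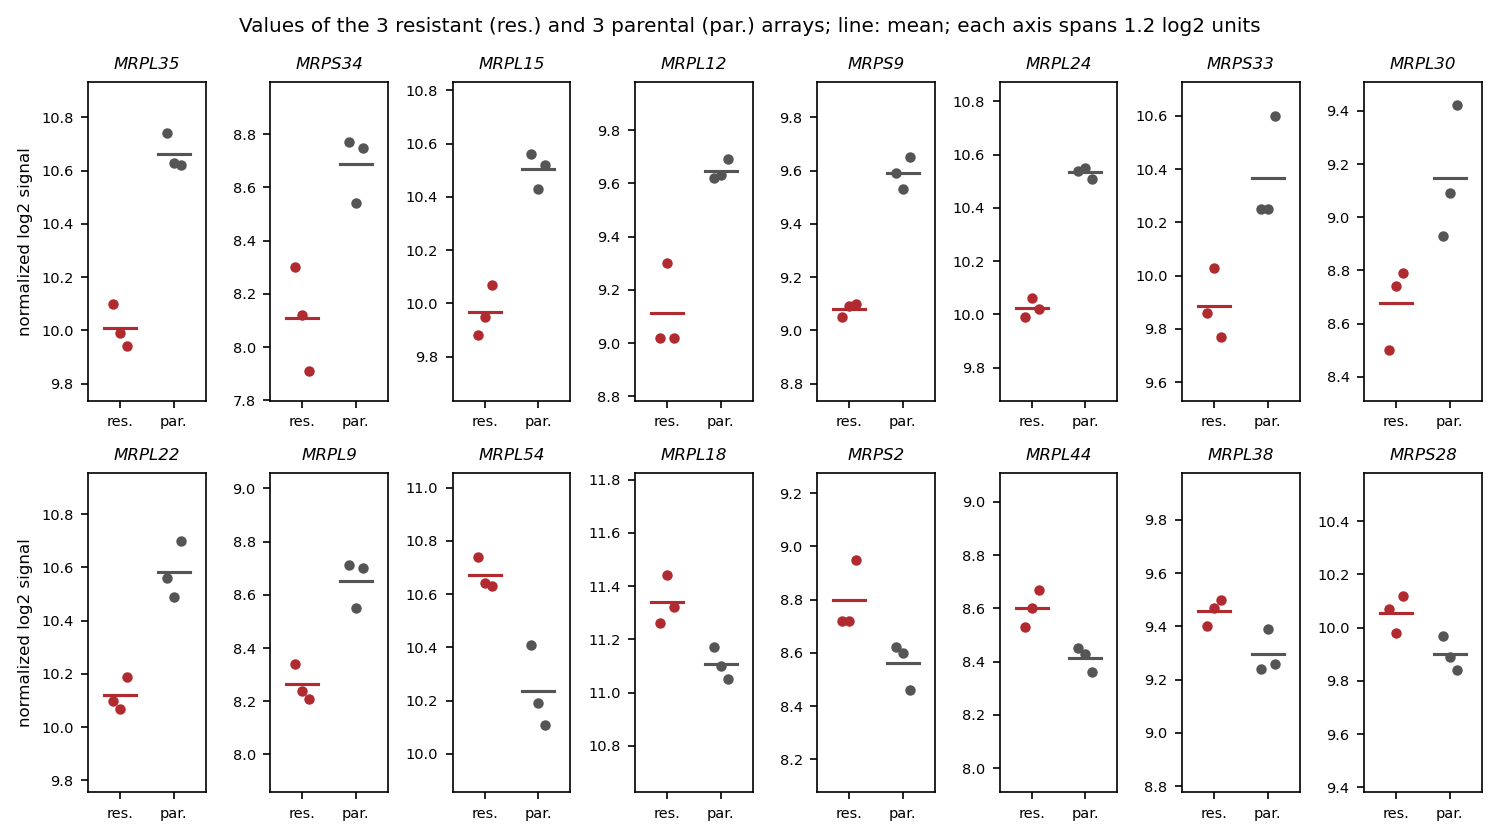
Normalized log2 signal of each array for the 10 largest falls and the 6 rises; red points are the 3 resistant arrays and grey points the 3 parental arrays, lines are group means, and every vertical axis spans 1.2 log2 units. Panels were drawn only for called members whose groups do not overlap, which held for all 38 called members. The widest gap is that of MRPL35, and that of MRPS28 is narrow.

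The 6 rises were small. MRPL54, specific to the mitochondrial particle, had 10.74, 10.64 and 10.63 in resistant arrays, against 10.41, 10.19 and 10.11 in parental arrays, 1.35-fold higher (difference 0.43, SE 0.0739, limma adjusted p = 2.58e-04). It was the only rise to reach 1.2-fold, and the only 1 of the 6 that passed in all 14 alternatives. MRPL18 had 11.26, 11.44 and 11.32 in resistant arrays, against 11.17, 11.10 and 11.05 in parental arrays (difference 0.24, limma adjusted p = 0.00611). Its second probe differed by 0.06, and the mean of both probes lost the call (adjusted p = 0.0614, the highest over the alternatives, which began at 0.00420). MRPS2 had 8.72, 8.72 and 8.95 in resistant arrays, against 8.62, 8.60 and 8.46 in parental arrays (difference 0.24, limma adjusted p = 0.0145). MRPL44, whose fold resembles a double-stranded RNA nuclease, had 8.53, 8.60 and 8.67 in resistant arrays, against 8.45, 8.43 and 8.36 in parental arrays (difference 0.19, limma adjusted p = 0.0172). MRPS2 and MRPL44 both lost the call without parental replicate 3 or without resistant replicate 3, with adjusted p up to 0.0749 and 0.0762.

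MRPL38 had 9.40, 9.47 and 9.50 in resistant arrays, against 9.24, 9.39 and 9.26 in parental arrays (difference 0.16, limma adjusted p = 0.0416). MRPS28 had 10.07, 9.98 and 10.12 in resistant arrays, against 9.97, 9.89 and 9.84 in parental arrays (difference 0.15, limma adjusted p = 0.0458). In both genes the groups lay 0.01 log2 units apart, and both calls were lost with the background mode subtracted and with an intensity trend, with adjusted p up to 0.130 and 0.156 over the alternatives. MRPL38 also lost its call without parental replicate 1 or 3 or resistant replicate 2 or 3, and MRPS28 with array weights and without parental replicate 2 or 3 or resistant replicate 1 or 3.

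The 38 members that did not pass differed by at most 0.18 in size. For 27 of them the 95% interval of the difference lay within 1.2-fold on either side. MRPL19 had 9.06, 9.23 and 9.59 in resistant arrays and 9.41, 9.61 and 9.38 in parental arrays, with overlapping groups (difference -0.18, 95% interval -0.41 to 0.06). It passed without resistant replicate 3 alone (adjusted p = 0.00664, up to 0.659 over the alternatives). MRPL58, a peptidyl-tRNA hydrolase built into the large subunit that rescues stalled particles, had 9.26, 9.44 and 9.34 in resistant arrays and 9.32, 9.04 and 9.18 in parental arrays (difference 0.17, limma adjusted p = 0.0788). Leaving out parental replicate 1 or resistant replicate 1 took it past the threshold (adjusted p 0.0183 to 0.320 over the alternatives). In 5 of these members the groups did not overlap although the test was not passed: MRPS24 was higher in resistant arrays, and MRPL21, MRPL36, MRPL51 and MRPS35 were lower, by 0.15, 0.13, 0.13 and 0.09. The second probe of MRPL21 fell by 0.34 (limma adjusted p over all probes = 0.00363). MRPL21 passed with the mean of its probes, with no filter on dim probes and without resistant replicate 2 (adjusted p 0.00442 to 0.155 over the alternatives).

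The MRPS18 genes encode 3 paralogues of a bacterial protein that take different places in the particle. None passed the test, where 53% of all genes tested did. MRPS18A had 8.34, 8.13 and 8.24 in resistant arrays and 8.33, 8.14 and 8.22 in parental arrays (difference 0.0089, 95% interval -0.14 to 0.16). MRPS18B had 9.96, 10 and 10.23 in resistant arrays and 9.97, 10.07 and 10.08 in parental arrays (difference 0.02, 95% interval -0.13 to 0.18). MRPS18C had 11.18, 11.27 and 10.95 in resistant arrays and 11.24, 11.22 and 11.21 in parental arrays (difference -0.09, 95% interval -0.25 to 0.07). The groups overlapped in all 3, and the limma adjusted p was 0.925, 0.815 and 0.347.

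Members with a bacterial homologue were set beside the rest. Of 45 such genes 23 fell (51.1%) and 3 rose, with a median difference of -0.17. Of 29 genes without a homologue 9 fell (31%) and 3 rose, with a median of -0.03. MRPS18A and MRPS18B were kept out of both. The homologues were taken from a list and not checked by sequence. MRPL55, which did not pass (difference 0.12), was counted among the genes with a homologue, and its place there is uncertain. The gap lay mainly in the large subunit, where 16 of 29 genes with a homologue fell (median -0.24) against 5 of 19 without (median -0.03). In the small subunit 7 of 16 genes with a homologue fell (median -0.06), against 4 of 10 without (median -0.06). Over all genes tested 26.9% fell and 26.1% rose. Large subunit genes without a homologue fell in 26.3%, close to that share, and those with one in 55.2%. In the small subunit the shares of falls were 40% without and 43.8% with a homologue. The differences between these groups, and from all genes tested, were not tested.

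Where a gene had several tested probes, they could be set against each other. Of 22 such members, 10 had every probe fall past the threshold, namely MRPL35, MRPL22, MRPL24, MRPL30, MRPL20, MRPL33, MRPL47, MRPL4, MRPS33 and MRPS21. The same share over all genes with several tested probes was not computed, so these 10 show agreement of probes within those genes only. Probes differed in sign for 7 members, and in none of these were probes called in opposite directions. The 7 were MRPL11, MRPL42, MRPL43, MRPL45, MRPS11, MRPS18B and MRPS27. Of these, MRPL43 was called, with probes at -0.15, -0.26 and 0.02 and the last of them at the background limit.

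The promoters of the members were read from RefSeq sequences (GRCh38.p14, 250 bases before to 50 after the annotated start), where 68 of the 76 genes had an entry. ETS factors such as GABP and the factor NRF1 are known to bind promoters of nuclear genes for mitochondria. The letters CCGGAAG, the core of an ETS site, were found on either strand in 41.2% of the member promoters, against 19.2% of the promoters of all 9161 genes tested with an entry. They stood in 39% of large and 44.4% of small subunit promoters, and in 16 of 28 promoters of members that fell, 2 of 5 of those that rose and 10 of 35 of those that did not pass. In the 250 bases before the start alone, the counts by call were 12 of 28, 2 of 5 and 8 of 35. The NRF1 motif, a GC-rich stretch with a free base inside it, was found in 11.8% of the member promoters, against 12% of those of all genes tested. AAGATGGCG, bound by YY1, was found in 19.1%, against 4.02%, with 10 of the 13 matching promoters holding it only after the start, and it occurred in 2 of 28 promoters of members that fell and 10 of 35 of those that did not pass. The E-box CACGTG was found in 8.82%, against 10.2%. The ETS and YY1 letters can share the bases AAG, and 4 member promoters held both, without overlap. Differences in these shares, by call or from all genes tested, were not tested, and a match describes letters only.

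The sequences below show the 250 bases before the start of 6 members that changed, the MRPL46 stretch lying between its start and that of MRPS11, 5′ to 3′ on the gene's strand, with ETS and NRF1 letters in capitals on whichever strand they were found; they were picked to show genes with and without the searched letters. MRPL20 (chr1:1407294-1407543, minus strand) and MRPS22 (chr3:139343744-139343993, plus strand) each held 2 ETS matches. MRPS33 (chr7:141014953-141015202, minus strand) and MRPS9 (chr2:105037819-105038068, plus strand, within the antisense gene MRPS9-AS2) each held an NRF1 match. MRPL54 (chr19:3762432-3762681, plus strand), the largest rise, held an ETS match close to its start. The MRPL46 region (chr15:88467389-88467638, minus strand) held none of these letters.
MRPL20: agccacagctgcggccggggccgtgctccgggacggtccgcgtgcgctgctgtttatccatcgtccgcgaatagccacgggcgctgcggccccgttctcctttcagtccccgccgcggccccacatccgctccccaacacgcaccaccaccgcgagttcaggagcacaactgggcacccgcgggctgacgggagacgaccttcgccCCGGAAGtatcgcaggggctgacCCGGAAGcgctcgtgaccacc
MRPS22: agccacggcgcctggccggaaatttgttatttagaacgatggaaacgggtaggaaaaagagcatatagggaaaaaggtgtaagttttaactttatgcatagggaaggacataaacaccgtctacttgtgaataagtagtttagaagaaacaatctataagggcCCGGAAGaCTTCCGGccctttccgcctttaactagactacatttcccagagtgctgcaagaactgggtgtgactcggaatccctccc
MRPS33: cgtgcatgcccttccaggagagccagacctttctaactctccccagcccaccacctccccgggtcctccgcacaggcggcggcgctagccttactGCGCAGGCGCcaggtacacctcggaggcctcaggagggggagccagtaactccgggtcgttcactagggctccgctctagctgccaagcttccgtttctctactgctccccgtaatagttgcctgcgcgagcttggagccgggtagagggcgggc
MRPS9: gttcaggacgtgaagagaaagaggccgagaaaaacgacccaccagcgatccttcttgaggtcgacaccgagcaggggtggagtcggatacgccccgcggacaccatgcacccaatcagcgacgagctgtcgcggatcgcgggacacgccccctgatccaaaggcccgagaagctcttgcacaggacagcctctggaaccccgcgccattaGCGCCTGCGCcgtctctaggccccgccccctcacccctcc
MRPL46: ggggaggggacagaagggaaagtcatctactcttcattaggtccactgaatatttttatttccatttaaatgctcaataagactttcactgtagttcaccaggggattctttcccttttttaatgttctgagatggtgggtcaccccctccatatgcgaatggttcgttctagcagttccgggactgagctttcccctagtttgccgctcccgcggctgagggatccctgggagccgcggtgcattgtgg
MRPL54: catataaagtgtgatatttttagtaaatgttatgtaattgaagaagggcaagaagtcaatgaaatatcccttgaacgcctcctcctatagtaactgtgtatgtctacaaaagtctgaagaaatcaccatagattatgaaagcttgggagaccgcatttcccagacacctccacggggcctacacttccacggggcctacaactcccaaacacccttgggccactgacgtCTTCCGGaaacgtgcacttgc

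Some members start back to back with another gene, and the share of all genes that do so was not computed. Within 1000 bases, 22 of the 68 had a gene on the opposite strand starting away from them in the same table, and 18 of these neighbours were tested. Among the 18, 3 rose, 4 fell and 11 did not pass, with a median difference of -0.06. Over all genes tested 26.1% rose and 26.9% fell. The 18 neighbours include the members MRPL46, among the 4 falls, and MRPS11, each counted as neighbour of the other. MRPL46 and MRPS11 are such a pair, with starts 320 bases apart, and encode proteins of different subunits. MRPL46 had 9.41, 9.39 and 9.48 in resistant arrays, against 9.87, 9.74 and 9.79 in parental arrays (difference -0.38, limma adjusted p = 1.05e-04). MRPS11 had 9.65, 9.65 and 9.88 in resistant arrays and 9.72, 9.63 and 9.83 in parental arrays (difference -0.00049, 95% interval -0.16 to 0.16). The groups of MRPL46 were apart and those of MRPS11 overlapped, and the difference between the genes, picked for it, was not tested. MRPL30 and its neighbour MITD1, 126 bases away, fell by 0.47 and 0.19 (limma adjusted p = 0.00232 and 0.0163). MRPL54 and its neighbour APBA3, 990 bases away, rose by 0.43 and 0.51 (limma adjusted p = 2.58e-04 and 1.70e-05). MRPS12 fell while its neighbour SARS2, a mitochondrial aminoacyl-tRNA synthetase, differed by 0.0030 (limma adjusted p = 0.970).

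Related genes of mitochondrial translation were set beside the members, against a background of 26.9% falls, 26.1% rises and 53% called over all genes tested. These short lists were not tested against it. Of the mitoribosomal proteins with other symbols, 3 were tested: CHCHD1 and DAP3, both of the small subunit, fell by 0.35 and 0.29, and GADD45GIP1, of the large subunit, rose by 0.17 (limma adjusted p = 2.37e-04, 0.00103 and 0.0174). GADD45GIP1 lost the call without resistant replicate 1 or 3 (adjusted p up to 0.0582). Of 20 tested assembly factors 4 fell and 4 rose (20% each), with a median of -0.06. GTPBP10 and MTG2 entered through part of the arrays, and 3 of the other 18 fell and 4 rose. The helicase gene DDX28 fell by 0.70, ERAL1, which chaperones the small subunit RNA, by 0.38, and the RNA methyltransferase gene MRM2 by 0.43, whereas YBEY, an RNA processing factor, rose by 0.38 (limma adjusted p = 3.28e-07 to 8.91e-04).

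Of 14 tested translation factors 6 fell and 4 rose (71.4% called), with a median of -0.02. Without PDF, which entered through part of the arrays, 5 of 13 fell and the median was 0.04. TUFM, the elongation factor that brings aminoacyl-tRNA to the particle, fell by 0.61, and MRRF, which recycles it, by 0.43. GUF1, a back-translocating GTPase, rose by 0.44, and the release factor MTRF1L by 0.43 (limma adjusted p = 5.90e-06 to 1.08e-04 over these 4). With the mean of probes MTRF1L rose by 0.20. Of 16 tested mitochondrial aminoacyl-tRNA synthetases 7 fell and none rose (43.8% called), with a median of -0.14. FARS2 fell by 0.93, EARS2 by 0.43, RARS2 by 0.40 and MARS2 by 0.28 (limma adjusted p = 1.93e-08 to 0.00122), the last lost with the mean of its probes (adjusted p = 0.0539).

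Of 11 tested genes for upkeep and expression of mitochondrial DNA 6 fell and 2 rose (72.7% called), with a median of -0.23. LRPPRC, which stabilizes mitochondrial messenger RNA, fell by 0.58, the DNA-packaging factor TFAM by 0.51, the single-stranded DNA binding protein SSBP1 by 0.48 and the transcription elongation factor TEFM by 0.30 (limma adjusted p = 5.18e-06 to 9.68e-04). The mitochondrial RNA polymerase POLRMT differed by 0.11 (limma adjusted p = 0.192). Of 10 tested import genes, through which the ribosomal proteins enter, 5 fell and none rose (50% called), with a median of -0.16: TOMM70 fell by 0.59, the import motor HSPA9 by 0.58, TIMM23 by 0.45 and TOMM40 by 0.38 (limma adjusted p = 8.26e-06 to 1.11e-04).

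Of 8 tested transcription factors and coactivators of such genes 5 fell and none rose, with a median of -0.23. Without PPARGC1A and PPARGC1B, which passed the filter only through the parental arrays, 3 of 6 fell, with a median of -0.10. PPRC1 fell by 0.55 (limma adjusted p = 3.07e-06). PPARGC1A and PPARGC1B, coactivators of mitochondrial biogenesis, exceeded background on every parental array but not on any resistant array, and were at least 1.42-fold and 1.29-fold lower. GABPB1, a subunit of the ETS factor GABP, fell by 0.22, a call lost with the mean of its probes (adjusted p = 0.0933, and 0.00310 at the lowest), while its DNA-binding partner GABPA differed by 0.11 (limma adjusted p = 0.166). MYC differed by 0.02 (limma adjusted p = 0.861).

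**Figure D4:**
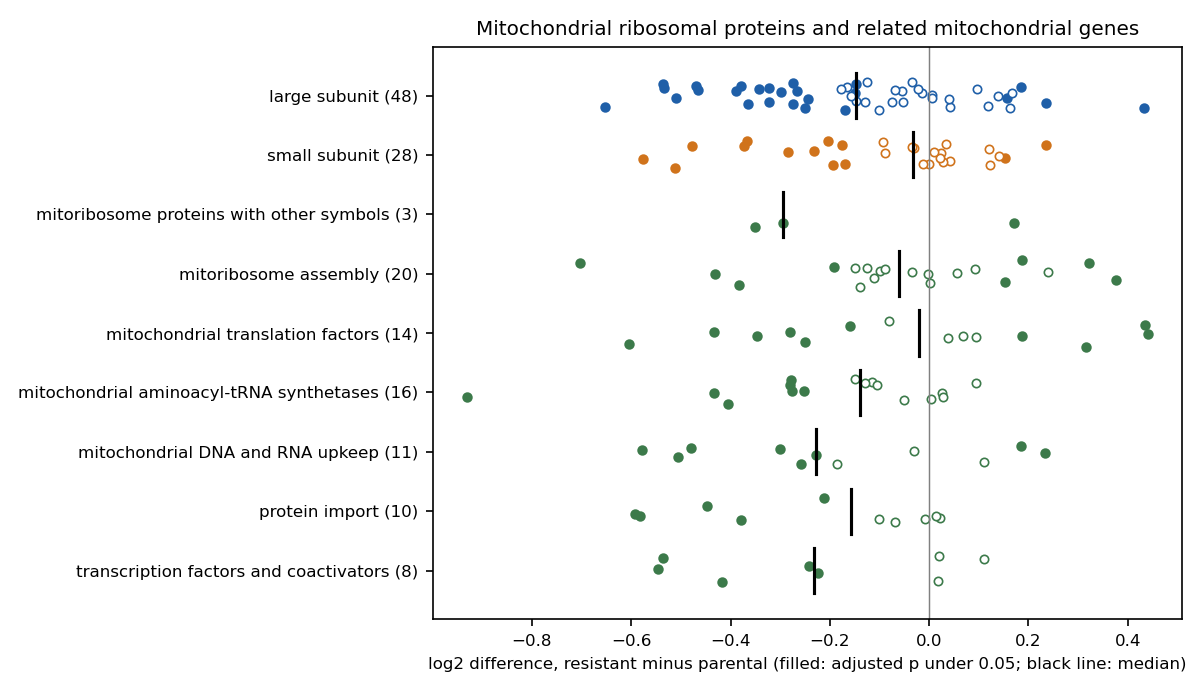
Log2 difference, resistant minus parental, of each tested gene (points; filled where the adjusted p was under 0.05) in the 2 subunits and 7 lists of related genes, with the number tested in brackets and the median as a black line. The synthetases, import genes and transcription factors have filled points only left of 0, while assembly and translation factors have them on both sides. Among the transcription factors, PPARGC1A and PPARGC1B passed the filter only through the parental arrays, so they could lie only left of 0. Without them the median of that row is -0.10. Vertical scatter within a row has no meaning.

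Cytosolic ribosomal protein genes, which make up the ribosomes outside mitochondria, fell in 18 and rose in 6 of 70 tested (25.7% and 8.57%, median -0.05). Nuclear complex I subunit genes fell in 9 and rose in 4 of 31 (29% and 12.9%, median -0.06). The shares of falls were close to the 26.9% over all genes tested. The shares of rises were below the 26.1% over all genes tested, as was the 7.89% of the mitochondrial ribosomal proteins. Genes called in either direction made up 34.3% of the cytosolic and 41.9% of the complex I list, against 53% of all genes tested. Passed or not, 51 of the 70 cytosolic and 20 of the 31 complex I genes were lower in the resistant cells, beside 52 of the 76 members. A surplus of lower values was therefore not particular to the members. These lists were not tested against the mitochondrial ribosomal proteins.

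Markers of the cells were read on the same arrays. All 6 squamous epithelial markers with a probe were above background on all arrays, and all 6 fell, with a summed log2 signal of 65.46 to 66.23 in resistant and 69.90 to 70.73 in parental arrays. Of 8 fibroblast markers 4 were above background on all resistant arrays and 1 on all parental arrays. The summed log2 signal of the 8 was 60.54 to 60.69 in resistant and 55.28 to 55.51 in parental arrays. DCN, LUM and COL1A2 exceeded background on every resistant array but on no parental array, and were at least 5.54-fold, 2.37-fold and 1.12-fold higher. COL1A1 rose by 0.55 (limma adjusted p = 2.58e-06). COL3A1 and FAP exceeded background on 2 resistant arrays and no parental array, while THY1 and PDGFRB were at background throughout. Leukocyte markers summed to 54.87 to 55.03 in resistant and 54.13 to 54.20 in parental arrays, with PTPRC, CD3E and LYZ at background. Among them CD68 rose by 1.39 on the log2 scale and CSF1R fell by 0.66 (limma adjusted p = 4.07e-09 and 3.97e-07), while CD14 and CD79A differed by 0.11 and -0.07. Endothelial markers summed to 48.05 to 48.12 in resistant and 47.55 to 47.61 in parental arrays, with 6 of 7 at background on every array. The other, PECAM1, exceeded background on every resistant array but on no parental array, and was at least 1.22-fold higher. The part of these shifts in the results above was not tested.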

How the data were processed

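Total RNA of 3 resistant and 3 parental HN5 samples was read on Illumina arrays of 47230 probes. The authors deposited normalized signals, taken here as log2 from their range of 6.513 to 13.76. How they corrected background and normalized is not given in the sources used here, but sorted values nearly matched across arrays. The base of the log was inferred from this range. Another deposited table, of signals not yet normalized, was left out since its 12 columns name no labelled sample.

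The platform annotation gave 1 symbol for 30112 probes, several for 8 and none for 17110. A probe was tested if it exceeded the array's background limit on at least 3 of 6 arrays. The limit was the mode of the values plus 3 SDs of those below it (6.97 to 6.98, passed by 40.7% to 40.8% of probes). The brightest tested probe stood for each of 11379 genes. Resistant and parental arrays were compared with limma 3.58.1 in R 4.3.3, with no block, Benjamini-Hochberg adjustment and a threshold of 0.05, and the fit was tested on simulated data. The number of arrays limits the precision. Levels of different probes were ranked within a gene to pick the brightest, and those of markers were summed. No gene's abundance was read against that of another gene. Correlations were 0.9965 to 0.997 within and 0.978 to 0.98 between groups. Values in every sample are given for up to 10 falls and 10 rises of largest size whose groups do not overlap, the MRPS18 and stalk genes, and the 3 largest differences that did not pass. Of each related list the 4 genes of smallest adjusted p are named. Values of other genes (MRPL46, MRPS11, MRPS22, SARS2, POLRMT, GABPA, MYC, MITD1, APBA3) were chosen after they were seen. The 14 alternatives covered the filter, probe choice, normalization, background, variance model, array weights, replicate block and each replicate left out. A bound on a fold takes, for the dim group, the higher of its own signal and the lowest signal above background. Members and lists were chosen with earlier results of these data known.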

Additional observations from a re-analysis of the deposited data

How the results depend on the processing

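Of the 38 called members, 24 (23 falls and the rise of MRPL54) passed in the same direction in all 14 alternatives, 14 lost the call at least once and none reversed. Of the 38 others, 10 passed at least once. Over the alternatives 26 to 33 members fell and 4 to 7 rose, and 5407 to 6135 of all genes were called. With each replicate left out in turn, 2 to 6 large and 1 to 2 small subunit genes rose, the member median was -0.122 to -0.0876 and the small subunit median -0.071 to -0.0283. The large subunit had 2 rises without parental replicate 3. The small subunit had 1 rise with the background mode subtracted, with an intensity trend or with array weights. The member median was -0.133 with the background mode subtracted, and the small subunit median -0.0611 by place in the structure. The median of all genes turned to 0.00449 under cyclic loess. The cause of these shifts was not tested. With the replicate block 33 members fell and 6 rose, with 6135 of all genes called. The deviations of same-numbered arrays correlated at 0.144, 0.00185 and 0.0859, and 3 of 6 arrays correlated best with their own number, so the numbers were not taken to pair the samples.

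Turns of sign were limited to members that had not passed. With the mean of probes the MRPS18B log2 difference was -0.0259, with MRPL42 at -0.071, MRPS11 at 0.042 and MRPS27 at 0.015. Under cyclic loess the MRPS11 log2 difference was 0.00461, and with array weights MRPS18A by -0.0025 and MRPL48 by 0.0036. With a replicate left out the differences spanned 0, at -0.016 to 0.30 for MRPS25, -0.021 to 0.0998 for MRPL13, -0.013 to 0.11 for MRPS10, -0.0057 to 0.11 for MRPL17, -0.0095 to 0.096 for MRPS23, -0.061 to 0.074 for MRPS18B, -0.016 to 0.052 for MRPS7, -0.043 to 0.061 for MRPS18A, -0.051 to 0.045 for MRPL42, -0.013 to 0.025 for MRPL50, -0.078 to 0.052 for MRPS11, -0.049 to 0.021 for MRPS27, -0.0796 to 0.0548 for MRPL48, -0.0700 to 0.0238 for MRPL45, -0.075 to 0.0087 for MRPS26, -0.14 to 0.058 for MRPL52, -0.092 to 0.00025 for MRPL37 and -0.16 to 0.0032 for MRPS18C. All members exceeded the background limit on every array, so none of their differences is a bound.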
